A study of Mus musculus with 22 samples.

Results

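The comparison set first mandibular molars of postnatal day 11 (P11) against those of postnatal day 5 (P5) in mice with 1 mutated Tgfbr2 allele. Its members were 11 RNA sequencing libraries of the 22 in the series, 6 from P5 Het and 5 from P11 Het molars, chosen by age and genotype in the column names of the count table. The other 11 libraries came from WT littermates, 6 at P5 and 5 at P11, and served to ask whether the age change differed between genotypes. They were also in the fitted model, where they shared in the filter on low counts and in the estimate of the spread behind the Het p-values. Het mice carried Tgfbr2 G357W/+, a knocked-in substitution in the type II TGF-beta receptor made to model Loeys-Dietz syndrome, which is an inherited disorder of connective tissue. WT littermates carried unmutated alleles. The allele is present in every cell of the animal, no agent was given, and whole molars were used, so each library mixes enamel-forming epithelium, pulp, dentin-forming cells, follicle, vessels and whatever tissue stayed attached. The comparison asks how the transcriptome of the mutant molar moved from the stage when enamel matrix is laid down to the stage when it hardens.

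A mouse molar is built by an epithelium and a mesenchyme facing each other. Ameloblasts, the epithelial cells, first secrete a protein matrix of amelogenin, ameloblastin and enamelin and then switch to a maturation stage, in which they digest that matrix, move ions and acid, and attach to the enamel through a new basal lamina. Odontoblasts, the mesenchymal cells at the pulp surface, make dentin, while the follicle around the tooth forms the periodontal ligament and recruits the osteoclasts that open the eruption path. TGF-beta, BMP, hedgehog and Wnt ligands pass between these layers, and Tgfbr2 is the receptor that binds TGF-beta ligands at the cell surface and then activates the type I receptor, which passes the signal on.

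Library totals ran from 32904047 to 40498124 counts at P5 and from 39721549 to 45343814 at P11. The labels limit the comparison in several ways. The labels of P5 Het 6 disagree: its title gives P5, and its tissue and treatment fields give P11. It was kept with the P5 libraries, beside which it lay on the first principal component (score 46.67, against 42.55 to 45.64 in the other P5 libraries and -58.94 to -47.1 in the P11 libraries). That component, computed on the 1000 genes that varied most among the Het libraries, carried 78% of their variance. The submitters state 5 Het and 8 WT mice for 22 libraries. Animals may thus have given more than 1 library each, and p-values measure the spread between libraries, which is then too small. A number at the start of each library name, called the prefix here, takes the values 3, 4 and 5 among the P5 libraries and 1 and 2 among the P11 libraries, and nothing says what it stands for. Age and prefix cannot be told apart. Prefix 5 holds P5 Het 5 and P5 Het 6 and no WT library, so prefix and genotype are not balanced at P5 either. Among the Het libraries 4 of 6 at P5 and 2 of 5 at P11 were from males, read from Y-linked genes. Mitochondrial genes took 0.78% to 0.89% of counts at P5 and 1.06% to 1.32% at P11, and their part in the results was not tested.

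Values are given in CPM (counts per 1000000 counts) scaled by TMM, which sets libraries to a common total after leaving out the most extreme genes. At P5 the lowest, median and highest of the 6 libraries are given, and at P11 the 5 libraries in the order of replicates 1 to 5, of which replicates 1 to 3 have prefix 1 and replicates 4 and 5 prefix 2. A change is a log2 fold change (P11 over P5) ± its standard error (SE), and a value ± an error in CPM is a group mean ± SD (n = 6 libraries at P5 and n = 5 at P11). A gene was called, and is said to have risen or fallen, at an adjusted p under 0.05 in edgeR's quasi-likelihood test with Benjamini-Hochberg adjustment over all genes tested.

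Close to every second gene moved with age in the mutant molars. Of 21510 genes tested, 5250 rose (24.4%) and 5041 fell (23.4%), together 10291 (47.8%). At least a 2-fold change in addition was seen for 1882 that rose (8.75%) and 1687 that fell (7.84%). The P11 libraries all lay above the P5 libraries for 3410 genes (15.9%) and below them for 3098 (14.4%). The median log2 fold change of all genes was -0.01, which TMM scaling holds near 0. Shares given with a list below are of its tested members, in the order of the counts before them. They are read against 24.4% of all genes higher and 23.4% lower. Of the 10291 genes called, 6466 had groups that did not overlap, and overlaps within lists are read against that count. The split moved with the scaling, to 4911 higher and 5442 lower with upper-quartile factors (median -0.04) and to 5733 higher and 4393 lower with library totals and no scaling factor (median 0.04).

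The genes with the highest level per length changed places. Ambn and Amelx, which encode ameloblastin and amelogenin, led at P5 with 41824 and 41567 RPKM (CPM per kilobase of exons). At P11 Odam, which encodes a protein that maturation-stage ameloblasts deposit at the enamel surface, led with 51760 RPKM, where it had stood at 852.7 RPKM at P5. Ambn was then at 14351 RPKM and Amelx at 2755 RPKM.

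Secretory-stage enamel genes mostly fell. Of 21 tested members, 13 fell (61.9%, against 23.4% of all genes) and 4 rose, and their median log2 fold change was -0.96. Enam, whose product enamelin is the largest of the enamel matrix proteins, was at 23972, 26474 and 28845 CPM at P5 and 2367, 2713, 1864, 141 and 70.3 CPM at P11 (log2 fold change -4.22 ± 0.75, adjusted p = 5.86e-05). The 3 P11 libraries of prefix 1 kept more than 1860 CPM and the 2 of prefix 2 were at 141 CPM or less, all of them far below the P5 libraries. Amelx was at 35438, 41746 and 47004 CPM at P5 and 4423, 4447, 3083, 899 and 908 CPM at P11 (log2 fold change -3.92 ± 0.40, adjusted p = 1.87e-08). The order of the P11 libraries was the same in kind, with the lowest values in replicates 4 and 5. Ambn was at 60838, 79901 and 92312 CPM at P5 and 26298, 37423, 36986, 19792 and 17199 CPM at P11 (log2 fold change -1.54 ± 0.18, adjusted p = 1.92e-07), a fall that left it among the most abundant transcripts.

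The protease and the accessory genes of matrix secretion fell with tight spreads. Mmp20, the metalloprotease that cleaves the secreted matrix, was at 752, 874 and 908 CPM at P5 and 126, 148, 123, 102 and 98.1 CPM at P11 (log2 fold change -2.84 ± 0.10, adjusted p = 2.24e-16), one of the 8 smallest p-values among genes that fell. Acp4, a phosphatase required for normal enamel, went from 803 ± 90.0 to 216 ± 38.4 CPM, and Fam20a, a pseudokinase that assists the secretory-pathway kinase Fam20c, from 232 ± 20.9 to 46.1 ± 8.56 CPM. The tight-junction gene Cldn10 fell by 2.58, and Sp6, a transcription factor of ameloblasts, by 2.49 on the log2 scale. The laminin chain genes Lama3 and Lamb3, which encode parts of a basal-lamina adhesion protein, fell by 0.96 and 0.89. Basal-lamina genes did not all move this way, since Amtn, given below, rose. Not all members moved down: Mmp9 rose by 2.40, Tuft1 by 1.17 and Fam83h by 0.62, while the calcium-binding Calb1 was at 5283 ± 691 and 5211 ± 1609 CPM and was not called (adjusted p = 0.933).

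**Figure D1:**
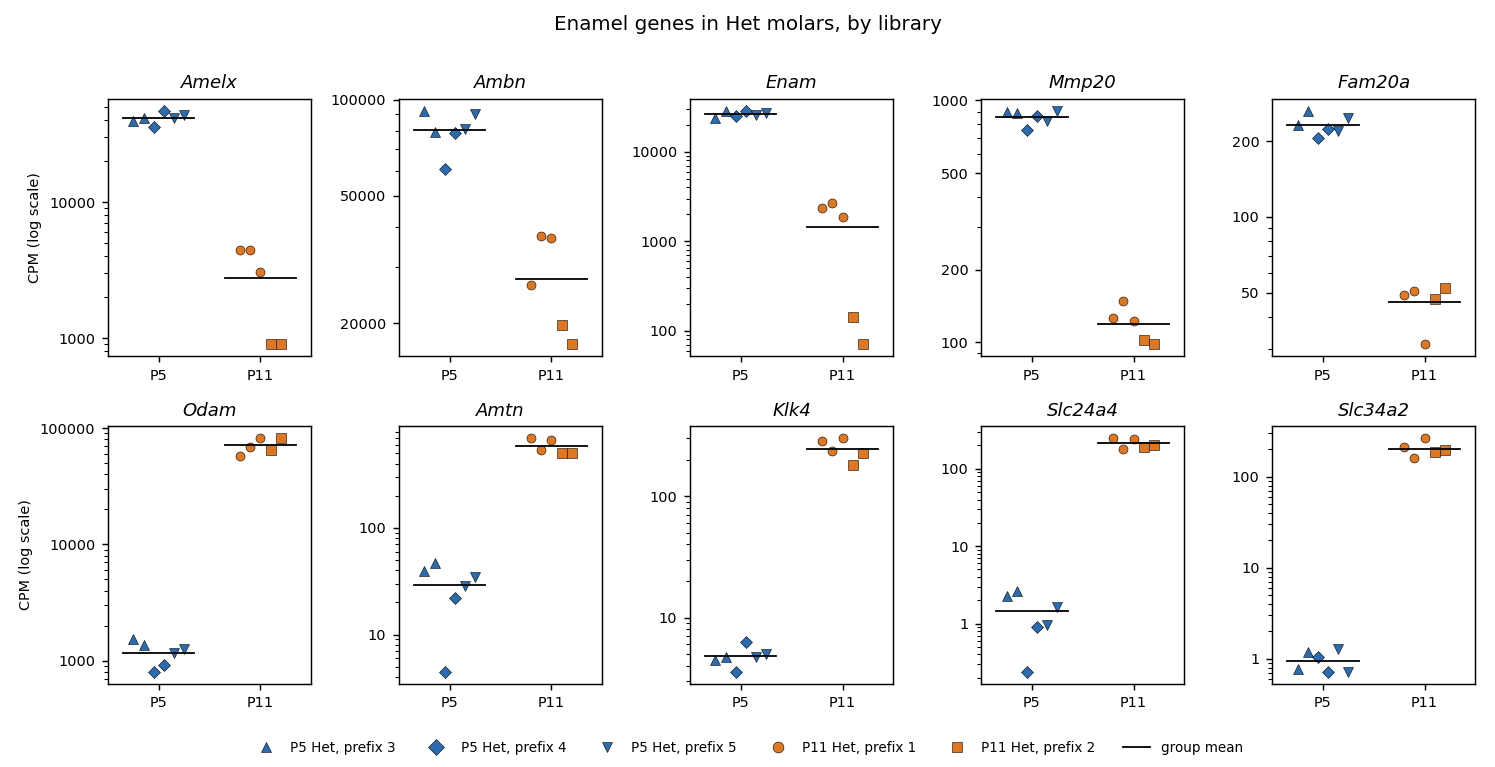
Level of 10 enamel genes in each Het library, in CPM on a log axis, with P5 libraries in blue and P11 libraries in orange and a short black line at each group's mean. Marker shapes give the library-name prefix. Enam and Amelx lie lower at P11 with the prefix 2 libraries lowest, and Odam, Klk4, Slc24a4 and Slc34a2 lie higher in all 5 P11 libraries.

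Matrix and protease genes of the maturation stage moved both ways, with large rises among them. Of 16 tested members 10 rose and 6 fell (62.5% and 37.5%), with a median of 0.63. Odam was at 801, 1202 and 1545 CPM at P5 and 57914, 69254, 82181, 64868 and 81889 CPM at P11 (log2 fold change 5.92 ± 0.20, adjusted p = 9.88e-17). Klk4, the serine protease that removes the remaining matrix, was at 3.57, 4.7 and 6.33 CPM at P5 and 284, 235, 300.4, 180.1 and 225 CPM at P11 (log2 fold change 5.67 ± 0.18, adjusted p = 3.27e-17). Every P11 library lay above every P5 library for both. Amtn, which encodes amelotin of the new basal lamina, was at 4.47, 31.6 and 47.3 CPM at P5 and 696, 541, 675, 504 and 509 CPM at P11 (log2 fold change 4.31 ± 0.39, adjusted p = 2.31e-09). P5 Het 3 was the lowest P5 library for Odam and Amtn alike.

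Other maturation genes followed. Odaph rose from 0.982 ± 0.378 to 17.9 ± 3.67 CPM, and Wdr72, a vesicle-trafficking protein whose loss leaves enamel undermineralised, from 10.7 ± 1.68 to 89.1 ± 20.6 CPM. The dipeptidyl peptidase Ctsc rose by 1.92. Genes on this list that fell were Relt (-2.82), Satb1 (-2.39), the integrin chain Itgb6 (-1.41), Serpinf1 (-0.44), Nectin1 (-0.37) and Slc10a7 (-0.19), several of them known to be needed for enamel without being restricted to its last stage.

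Genes of ion and acid handling rose in the same libraries. Of 25 tested members 18 rose, 3 fell and 4 were not called, with a median of 0.71, and 3 listed genes were too low to test. Slc24a4, the exchanger that carries calcium out of maturation ameloblasts, was at 0.238, 1.31 and 2.61 CPM at P5 and 249, 181, 245, 189.6 and 205 CPM at P11 (log2 fold change 7.21 ± 0.39, adjusted p = 2.92e-13). Slc34a2, a sodium-phosphate cotransporter, was at 0.719, 0.911 and 1.29 CPM at P5 and 209.6, 161, 266, 187 and 195 CPM at P11 (log2 fold change 7.73 ± 0.27, adjusted p = 1.5e-16). Both were near the limit of detection at P5 and at similar levels in all 5 P11 libraries. Among genes of bicarbonate and chloride transport, Car6 rose by 4.09, Slc26a1 by 3.30, Cftr by 2.26 and Slc26a7 by 1.86, whereas the bicarbonate cotransporter Slc4a4 was not called (194 ± 6.54 and 188 ± 18 CPM). The store-operated calcium entry genes rose less, Stim1 by 0.95, Stim2 by 0.91 and the channel Orai1 by 0.71. The plasma membrane calcium pump Atp2b1 went the other way, from 578 ± 41.6 to 240.3 ± 15.8 CPM (log2 fold change -1.26 ± 0.07, adjusted p = 2.92e-13).

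Iron genes changed in both directions, with 9 of 15 higher, 3 lower and a median of 0.70. Maturation-stage ameloblasts of rodents take up and store iron in ferritin. Fth1, the ferritin heavy chain, rose from 148 ± 14.4 to 918 ± 108 CPM and Ftl1, the light chain, from 161 ± 9.37 to 477 ± 56.6 CPM. Tfrc, the transferrin receptor, was at 18.8, 21.2 and 26.2 CPM at P5 and 119.5, 116, 139.7, 101 and 92.8 CPM at P11 (log2 fold change 2.40 ± 0.13, adjusted p = 2.47e-13). Its ligand gene Trf fell from 193 ± 30.2 to 38 ± 8.21 CPM. The ferrireductases Steap3 and Steap4 rose by 1.45 and 2.10, and the zinc and iron importer Slc39a14 fell by 1.16. The iron exporter Slc40a1 was not called (150.3 ± 10.1 at P5 and 159.7 ± 58 CPM at P11). With the P11 libraries of prefix 1 only it was called lower (-0.31, adjusted p = 0.0191), and with those of prefix 2 only higher (0.54, adjusted p = 0.00198).

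Several matrix genes named so far are neighbours on mouse chromosome 5, where the secretory calcium-binding phosphoprotein family is clustered, and neighbours moved in opposite directions. In GRCm38, Odam (chr5:87885029-87894174) and Csn3 (chr5:87925579-87932665) lie in the same stretch as Amtn (chr5:88376108-88385916), Ambn (chr5:88455991-88468531) and Enam (chr5:88487975-88506049). Of these, Odam and Amtn rose, Ambn and Enam fell, and Csn3, a milk casein gene, was not called at 17.7, 163 and 263 CPM at P5 and 206, 196, 248, 64.5 and 42.5 CPM (log2 fold change 0.03 ± 0.49, adjusted p = 0.968). The bone and dentin members lie further along, with Dspp at chr5:104170712-104180127, Dmp1 at chr5:104202613-104214102, Ibsp at chr5:104299171-104311469, Mepe at chr5:104325329-104338611 and Spp1 at chr5:104435118-104441050. There Dspp fell and Dmp1, Ibsp and Spp1 rose, while Mepe had a wide spread at P5 (0 to 2.76 CPM) and was not called (log2 fold change 1.99, adjusted p = 0.0834). P5 Het 4 alone held the highest P5 value, and without it Mepe was called (5.96, adjusted p = 2.87e-05).

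The dentin genes showed the same mixture. Of 26 tested members 14 rose and 7 fell (53.8% and 26.9%), with a median of 0.53. Dspp, which encodes the main non-collagen protein of dentin, was at 2503, 2881 and 3124 CPM at P5 and 1162, 1552, 1376, 1219.7 and 1168 CPM at P11 (log2 fold change -1.13 ± 0.13, adjusted p = 1.27e-07). Its fall was accompanied by that of Fam20c, the kinase that phosphorylates the family, from 189 ± 21.6 to 61.1 ± 6.66 CPM, of the phosphate-regulating peptidase Phex by 0.69 and of the intermediate filament Nes by 0.50. Several genes shared with bone rose, though not Phex above or Sp7 below. Spp1, osteopontin, was at 9.35, 22.3 and 39.4 CPM at P5 and 257, 212, 200.4, 328 and 219 CPM at P11 (log2 fold change 3.38 ± 0.25, adjusted p = 8.84e-11). Ibsp, bone sialoprotein, was at 121, 187 and 219 CPM at P5 and 498, 729, 712, 1072 and 859 CPM at P11 (log2 fold change 2.12 ± 0.20, adjusted p = 4.68e-09). For Ibsp and Dmp1 (0.95) the P11 libraries of prefix 2 were the highest. Runx2, the transcription factor of hard-tissue cells, rose from 139 ± 52.1 to 431 ± 100.2 CPM, and the pyrophosphate-generating Enpp1 from 91.7 ± 15 to 309 ± 38.3 CPM. Their partner Sp7 was not called (120.0 ± 26.5 and 135 ± 31.7 CPM, adjusted p = 0.479).

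Transcription factors of the dental mesenchyme moved little as a group, with 8 of 22 higher, 5 lower (36.4% and 22.7%) and a median of 0.02. Twist1 rose by 1.72, Lhx8 by 1.97, Foxf2 by 1.36 and Prrx1 by 1.18. Msx1, needed for tooth formation, fell by 0.70, and the distal-less genes Dlx5 and Dlx6 fell by 0.69 and 0.62. Barx1 (-0.02), Dlx1 (-0.07), Osr2 (-0.06) and Nfic (-0.01), the last known for root formation, were not called. In the dental epithelium list 9 of 21 rose and 6 fell (42.9% and 28.6%, median 0.15). For 9 of these 15 the ranges of the P5 and P11 libraries overlapped. The basal keratins rose, Krt14 from 671 ± 24.1 to 3231 ± 811 CPM and Krt5 from 321 ± 17.5 to 1171 ± 165 CPM. The Notch ligand Jag2 fell by 0.91, as did Jag1 by 0.93, whose call was lost without P5 Het 4 (-0.59, adjusted p = 0.131) or without any 1 of P11 Het 1, 2 and 3.

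**Figure D2:**
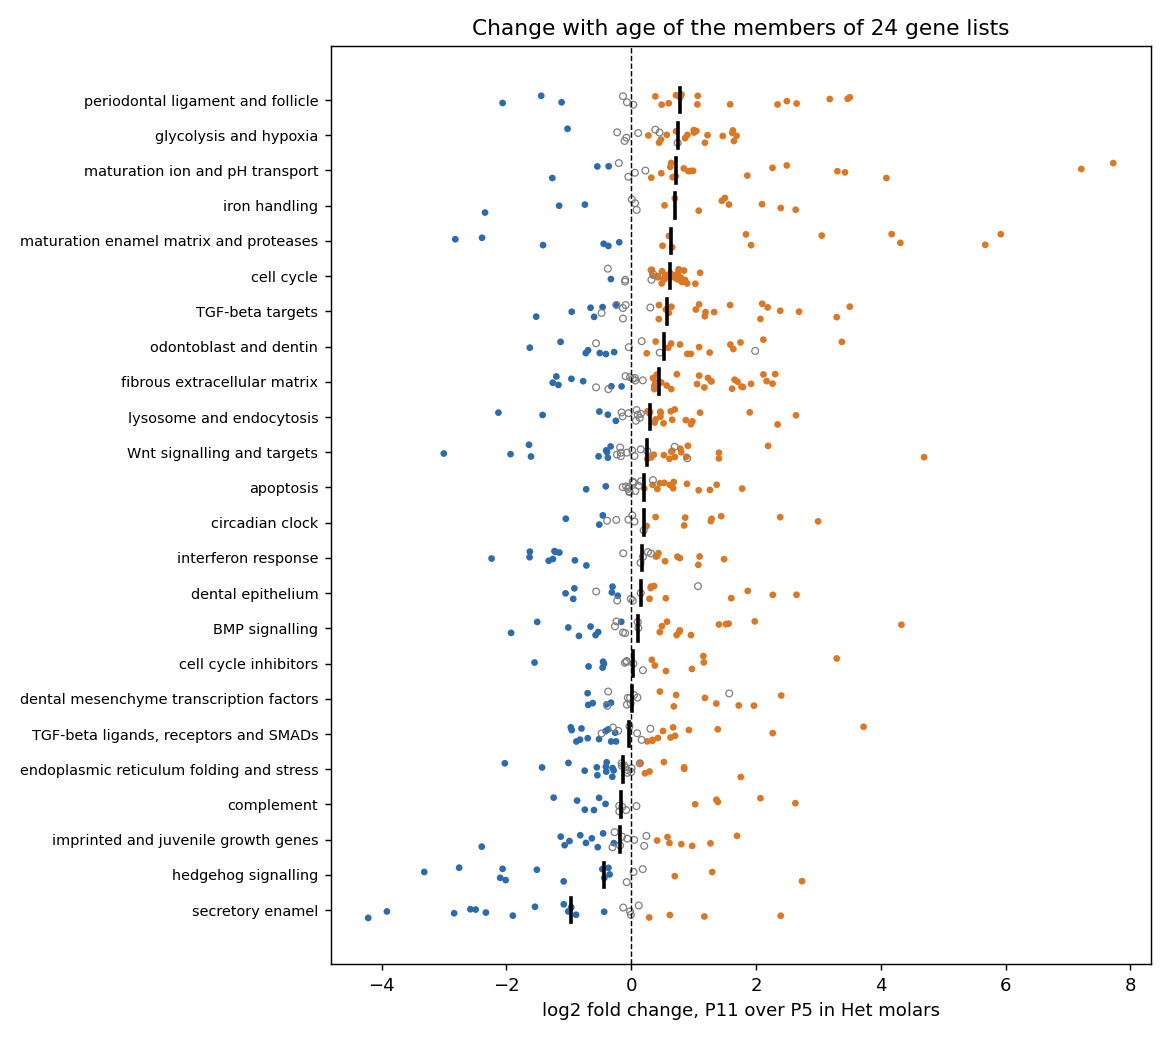
Log2 fold change (P11 over P5 in Het molars) of each tested member of 24 gene lists, 1 point per gene, filled where called and open where not, with a black bar at each list's median. A dashed line marks the median of all 21510 genes (-0.01). The secretory enamel and hedgehog lists have the lowest medians (-0.96 and -0.43), and the periodontal ligament list the highest (0.78).

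Ligament and follicle genes rose. Of 22 tested members 16 rose and 3 fell (72.7% and 13.6%), with a median of 0.78. Postn, which encodes periostin of the periodontal ligament, was at 60.5, 76.1 and 84.4 CPM at P5 and 697, 799.9, 652, 959.7 and 1118 CPM at P11 (log2 fold change 3.50 ± 0.15, adjusted p = 6.24e-15). Aspn, an inhibitor of ligament mineralisation, was at 14.5, 15.7 and 25.5 CPM at P5 and 115, 181, 139, 244 and 278 CPM at P11 (log2 fold change 3.47 ± 0.23, adjusted p = 1.1e-11). The tendon and ligament genes Tnmd and Scx rose from 10.3 ± 1.58 to 65 ± 10.7 CPM and from 0.429 ± 0.125 to 3.91 ± 1.11 CPM. Genes of the eruption path rose as well: Pthlh, the parathyroid hormone-related ligand, by 2.49, its receptor Pth1r by 0.72, the osteoclast-inducing cytokine Tnfsf11 by 2.35 and its decoy receptor Tnfrsf11b by 1.07. Fmod, a collagen-binding proteoglycan, fell from 123 ± 13.8 to 56.6 ± 12 CPM, and Dcn (0.03), Tnc (-0.13) and Csf1 (-0.07) were not called.

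Fibrous matrix genes rose in 25 of 40 cases and fell in 7 (62.5% and 17.5%, median 0.45). Col3a1, the collagen of pliant tissue, was at 2777, 2989 and 3343 CPM at P5 and 9287, 13265, 11744, 17943 and 16178 CPM at P11 (log2 fold change 2.17 ± 0.16, adjusted p = 4.03e-11). The fibril-regulating Col5a1 rose by 2.12, Col12a1 by 1.79 and the elastic fibre gene Eln by 1.77. The chains of type I collagen did not behave alike. Col1a2 rose from 5343 ± 526 to 11360.3 ± 1372 CPM (log2 fold change 1.09 ± 0.10, adjusted p = 4.47e-09), while Col1a1 was at 8872, 25762 and 32811 CPM at P5 and 16482, 8124, 9186, 23221 and 24147 CPM at P11 (log2 fold change -0.56 ± 0.34, adjusted p = 0.173). Its range at P5 contained most of its range at P11, with P5 Het 1 and P11 Het 2 and 3 low. With the P11 libraries of prefix 1 only it was called lower (-1.09, adjusted p = 0.0284). Collagen-modifying enzymes split: the lysyl oxidases Loxl1 and Loxl2 rose by 1.62 and 1.70 and the prolyl hydroxylase subunit P4ha3 by 2.27, whereas P4ha2 fell by 1.20 and the lysyl hydroxylase Plod2 by 1.17. The chaperone Serpinh1 (0.06), Fn1 (-0.09) and Fbn1 (0.03) were not called, and Fbn2, the fibrillin of developing tissue, fell by 0.96.

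The mutated gene itself fell with age. Tgfbr2 (chr9:116084293-116175360) was at 162, 188 and 210.3 CPM at P5 and 106, 111, 102, 111 and 96 CPM at P11 (log2 fold change -0.82 ± 0.07, adjusted p = 8.51e-10). All P11 libraries lay below all P5 libraries. The counts do not separate the mutated from the unmutated allele. Among 31 ligands, receptors and SMADs tested, 12 rose and 12 fell (38.7% and 38.7%, median -0.03). Other receptors fell too, Tgfbr1 by 0.52 and the co-receptor Tgfbr3 by 0.97, and so did the activin receptors Acvr1b (-0.88) and Acvr2b (-0.70). Of the ligands, Tgfb1 rose by 0.67, Tgfb2 fell by 0.41 and Tgfb3, at 139 ± 7.81 and 137 ± 6.87 CPM, was not called. The activin subunit gene Inhba was at 4.75, 5.49 and 7.59 CPM at P5 and 68.9, 87.3, 58.5, 75.2 and 89.4 CPM at P11 (log2 fold change 3.72 ± 0.14, adjusted p = 7.43e-16). Inhbb rose by 2.27 and the activin antagonist Fst by 1.39. The latent TGF-beta binding proteins went opposite ways, with Ltbp1 0.92 and Ltbp2 -0.95.

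Genes known as TGF-beta targets rose more often than they fell, 18 against 6 of 30 tested, with a median of 0.58. Thbs1, a matrix protein that activates latent TGF-beta, was at 22.4, 28.6 and 31.5 CPM at P5 and 164, 164, 157, 193 and 199 CPM at P11 (log2 fold change 2.69 ± 0.10, adjusted p = 2.52e-16). The CDK inhibitor Cdkn2b rose from 2.21 ± 0.651 to 21.8 ± 7.24 CPM, Bhlhe40 from 28.4 ± 9.7 to 149 ± 29.2 CPM, and Timp3, Junb, Pmepa1, Tgfbi and Klf10 by 2.10, 2.07, 1.33, 1.19 and 1.04. Cdkn1a (-0.46), Tgif1 (-0.59), Lmcd1 (-1.52) and Id2 (-0.65) were among those that fell. The feedback inhibitors Smad7 (-0.48) and Skil (0.31) were not called, though leaving out P11 Het 3 gave Smad7 a call (-0.64, adjusted p = 0.0126), as did leaving out P5 Het 3 or P5 Het 6, and leaving out P11 Het 4 one for Skil (0.41, adjusted p = 0.0459). Postn and Acta2 are on this list and on the ligament list, so those counts are not separate.

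Hedgehog signalling genes mostly fell. Of 17 tested members 11 fell and 3 rose (64.7% and 17.6%, against 23.4% and 24.4% of all genes), with a median of -0.43. Shh, the ligand made by dental epithelium, was at 4, 5.03 and 7.65 CPM at P5 and 0.814, 2.03, 0.529, 0.189 and 0.325 CPM at P11 (log2 fold change -2.76 ± 0.42, adjusted p = 6.84e-06). Its highest P11 value was that of P11 Het 2, and without that library the log2 fold change was -3.51. Ptch1, a receptor that hedgehog signalling itself induces, was at 595, 605 and 726 CPM at P5 and 181, 171, 119, 136 and 140.0 CPM at P11 (log2 fold change -2.10 ± 0.14, adjusted p = 6.42e-12). The other induced readouts Gli1 and Hhip fell from 48.5 ± 1.82 to 11.6 ± 4.06 CPM and from 48 ± 5.37 to 11.9 ± 4.31 CPM, and the transducer Gli2 by 1.08. The co-receptors Gas1 and Boc rose, Gas1 by 2.74 and Boc by 0.70, and Smo and Gli3 were not called (0.18 and -0.07).

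BMP genes moved both ways, 12 of 26 higher and 8 lower (46.2% and 30.8%, median 0.11). Grem1, a secreted BMP antagonist, rose from 0.312 ± 0.0986 to 6.35 ± 1.85 CPM. The ligands Bmp6 and Bmp7 rose by 1.41 and 0.96, Bmp5 and Bmp2 fell by 1.93 and 0.57, and Bmp4 was not called (-0.26). Sostdc1, an antagonist known from tooth patterning, fell by 1.51, and Id4 rose by 1.98. In the Wnt list 16 of 36 rose and 9 fell (median 0.26). Rspo4, which amplifies Wnt signalling, was at 168, 172 and 187 CPM at P5 and 24.7, 31.7, 27.5, 11.2 and 13.5 CPM at P11 (adjusted p = 5.11e-11), lower in every P11 library. Wnt10b rose from 0.767 ± 0.259 to 20.1 ± 2.89 CPM, while Wnt6 and Wnt10a, which are made by dental epithelium and odontoblasts, fell by 1.94 and 1.64. The secreted inhibitor Dkk1 fell by 1.61 and Sfrp2 rose by 2.19. Of the readouts of the pathway, Lef1 was not called (0.15), and Axin2 fell by 0.33 with overlapping ranges and lost its call when the 5 libraries of raised muscle or mucosa markers were left out (adjusted p = 0.0907). Wnt3a, outside that list, was among the 12 largest falls, from 22.2 ± 3.98 to 1.68 ± 0.956 CPM.

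**Figure D3:**
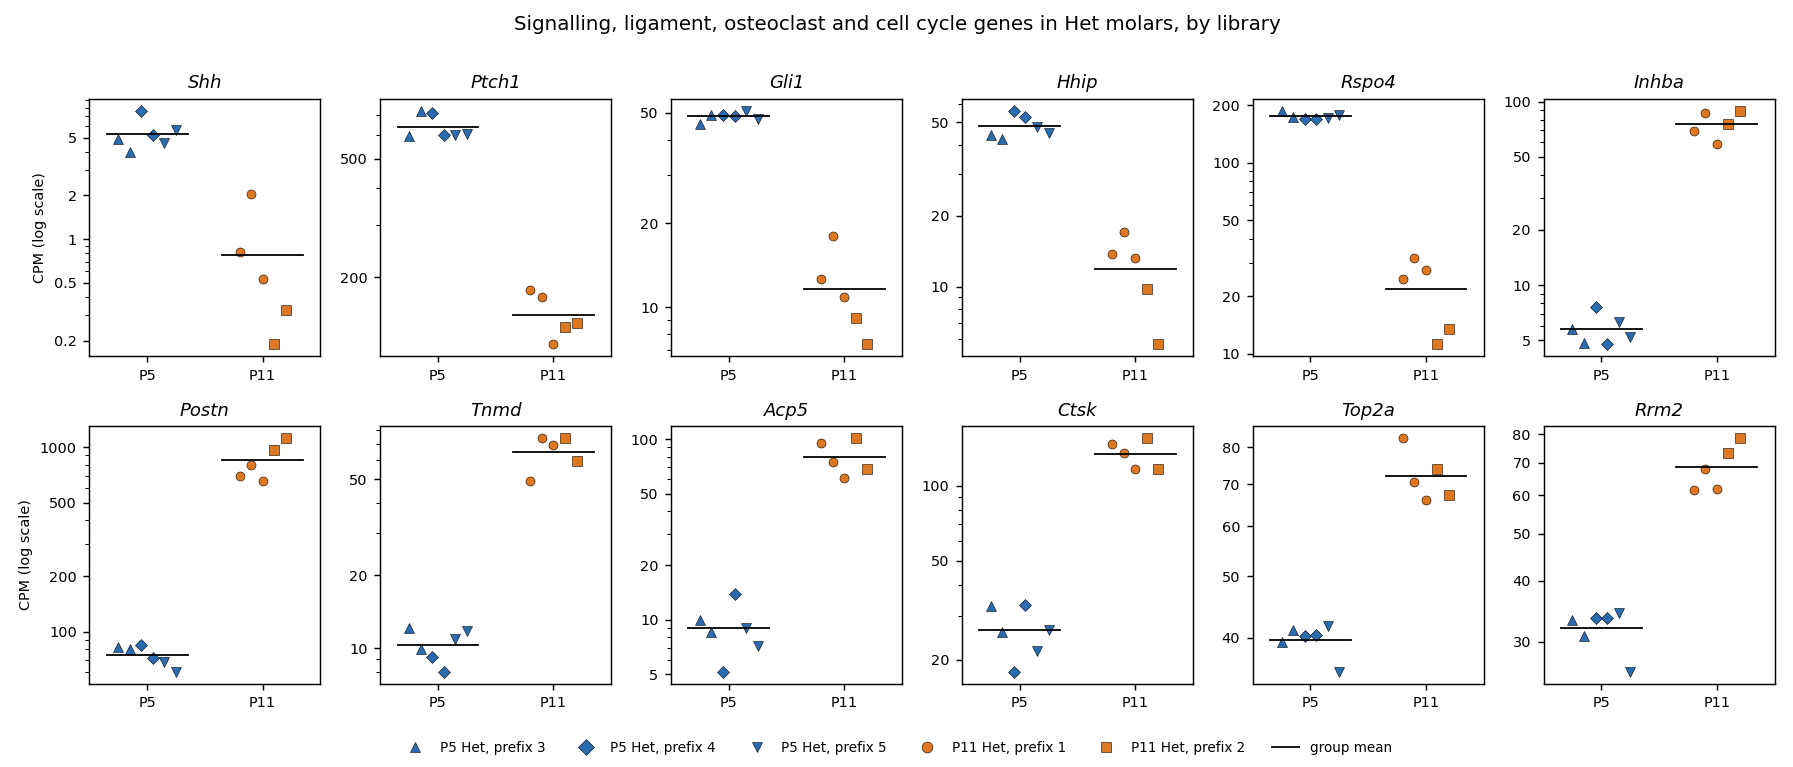
Level of 12 signalling, ligament, osteoclast and cell cycle genes in each Het library, in CPM on a log axis, drawn as in the plot of enamel genes. Shh, Ptch1, Gli1, Hhip and Rspo4 lie lower in all P11 libraries, and Inhba, Postn, Tnmd, Acp5, Ctsk, Top2a and Rrm2 higher.

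Cell cycle genes rose together by moderate amounts. Of 36 tested members 30 rose and 1 fell (83.3% and 2.78%), with a median of 0.62. Rrm2, a subunit of ribonucleotide reductase, was at 26, 33.4 and 34.4 CPM at P5 and 61.6, 67.8, 61.7, 73.4 and 78.6 CPM at P11 (log2 fold change 1.10 ± 0.10, adjusted p = 1.5e-09). Top2a, the topoisomerase of dividing cells, was at 35.3, 40.4 and 41.7 CPM at P5 and 82.8, 70.5, 66, 74 and 67.2 CPM at P11 (log2 fold change 0.86 ± 0.06, adjusted p = 2.05e-11). Neither gene's ranges overlapped. Mki67, the proliferation marker, rose by 0.80, Birc5 by 1.03, Cdk1 by 0.84, Ccnb1 by 0.81 and the replication helicase genes Mcm5 and Mcm6 by 0.72 and 0.68. The 1 that fell was the G1 cyclin Ccnd1 (-0.33, with overlapping ranges), and Ccna2, Ccnd2, Ccnd3, Ccne1 and E2f1 were not called. Among 17 inhibitors of division 7 rose and 5 fell (41.2% and 29.4%, median 0.03). Gadd45a and Gadd45b were at 1.16 and 1.16 and the antiproliferative Btg1 at -1.55.

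Genes of the G2 and M phases are known to share promoter elements, a CCAAT box and a cell cycle homology region, so the promoter letters of 2 genes that rose together are shown. Each is the RefSeq window of GRCm38.p6 from 250 bases before to 50 after the annotated start, on the strand of the gene, with matches to CCAAT and TTTGAA on either strand in capitals (ATTGG and TTCAAA are their reverse complements, and overlaps between motifs were not removed). The search was chosen after the values were seen.
Cdk1 (chr10:69352863-69353162, minus strand): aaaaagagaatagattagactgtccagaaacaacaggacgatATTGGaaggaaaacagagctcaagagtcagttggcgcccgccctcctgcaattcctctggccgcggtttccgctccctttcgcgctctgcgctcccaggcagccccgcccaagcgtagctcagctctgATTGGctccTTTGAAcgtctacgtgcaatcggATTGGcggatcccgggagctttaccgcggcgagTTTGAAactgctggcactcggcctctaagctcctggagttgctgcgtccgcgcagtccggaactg
Top2a (chr11:99024140-99024439, minus strand): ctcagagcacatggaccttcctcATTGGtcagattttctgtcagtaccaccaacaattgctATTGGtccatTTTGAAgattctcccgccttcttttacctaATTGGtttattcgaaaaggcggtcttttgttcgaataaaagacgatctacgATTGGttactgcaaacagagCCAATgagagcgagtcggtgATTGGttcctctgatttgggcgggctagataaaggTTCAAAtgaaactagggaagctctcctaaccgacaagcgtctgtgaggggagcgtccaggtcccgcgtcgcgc
Cdk1 had 3 CCAAT and 2 TTTGAA matches, and Top2a 6 and 2. Of the 29 cell cycle promoters in the table, 23 held CCAAT (79.3%) and 13 held TTTGAA (44.8%), against 37.9% and 18.1% of 27025 promoters of the same length. These are matches of letters and were not tested as sites.

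Imprinted genes and genes of early growth fell somewhat more often than they rose, 10 against 7 of 25 tested, with 8 not called (median -0.18). The summed level of the list went the other way, with a median of 3210 CPM at P5 and 4141 CPM at P11. Its ranges overlapped (2906 to 3654 CPM at P5 and 3547 to 5466.5 CPM at P11). Igf2bp1, an RNA-binding protein of fetal tissue, fell from 9.36 ± 2.1 to 1.77 ± 0.657 CPM, Hmga2 by 1.13, Igf2bp3 by 1.07, the glypican Gpc3 by 0.99 and the imprinted Peg3 by 0.82. The imprinted H19 rose from 35.3 ± 5.11 to 114 ± 18.5 CPM and Plagl1 by 0.98. Igf1 rose by 1.27, at 529, 675 and 1273 CPM at P5 and 1012, 2548, 3212, 1416 and 1553 CPM at P11, where P5 Het 1 and 2 overlapped the lowest P11 library.

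Secretory machinery and metabolism also moved. Of 28 endoplasmic reticulum genes 12 fell and 7 rose (median -0.13): the stress sensor kinase Ern1 fell from 136 ± 21.4 to 33.3 ± 2.44 CPM, the matrix-secretion factor Creb3l2 by 1.01 and Xbp1 by 0.75, while Calr rose by 0.85 and the main chaperone Hspa5 was not called (-0.15). Of 33 lysosome and endocytosis genes 19 rose and 6 fell (57.6% and 18.2%, median 0.30). The proton pump subunit Atp6v1a rose from 79 ± 2.94 to 295 ± 36.2 CPM and the cathepsin Ctsb from 1676 ± 70.5 to 3306 ± 131 CPM. The secretory GTPase Rab27a fell from 50.6 ± 19 to 11.6 ± 5.66 CPM. Glycolysis and hypoxia genes rose in 17 of 25 cases and fell in 1 (68.0% and 4.0%, median 0.74). Ldha, lactate dehydrogenase, was at 249, 303 and 318 CPM at P5 and 827, 847, 823, 1014 and 1049.5 CPM at P11 (log2 fold change 1.63 ± 0.10, adjusted p = 5.19e-12). Hif1a, the oxygen-regulated factor, rose from 88.8 ± 6.73 to 273 ± 25.1 CPM, Pfkp by 1.69, Vegfa by 1.47 and Gapdh by 1.01, and the 1 that fell was Car9 (-1.02).

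Apoptosis genes rose in 13 of 27 cases and fell in 2 (48.1% and 7.41%, median 0.21). Pmaip1 and Mcl1 were up by 1.37 and 1.08 and the survival gene Bcl2 down by 0.72. Clock genes rose in 9 of 19 cases and fell in 3 (47.4% and 15.8%, median 0.20). The clock output Hlf rose from 15.5 ± 1.16 to 124 ± 31.3 CPM and Per2 by 1.44, Bhlhe41 fell by 1.05, and Per1 was not called (-0.24). The hour of collection is not given in the labels. Interferon-response genes split, 9 of 24 higher and 10 lower (37.5% and 41.7%, median 0.17). The class I antigen genes H2-K1 and H2-D1 rose by 1.07 and 1.49, and the antiviral Oas2, Mx2 and Ifi44 and the GTPase Gbp3 fell by 1.62, 1.63, 1.25 and 1.22. Of 16 complement genes 5 rose and 6 fell (31.2% and 37.5%, median -0.17). The 5 that rose were C3, C4b, C1ra, C1s1 and Serping1, by 2.63, 2.07, 1.39, 1.02 and 1.36. The summed level of the list had a median of 1322 CPM at P5 and 1217 CPM at P11.

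The largest rises over all genes were led by genes barely present at P5. Triml1 had no count in any of the 6 P5 libraries and stood at 23.3, 20.9, 23.1, 26.2 and 21.3 CPM at P11, at least 256.8-fold higher than the floor of 3 counts in the shallowest P5 library. Akr1c18, an aldo-keto reductase that inactivates progesterone, was at 0.0498, 0.13 and 0.195 CPM at P5 and 168, 168, 156, 220.2 and 257 CPM at P11 (log2 fold change 10.63 ± 0.26, adjusted p = 3.43e-19). Slc15a1, a proton-coupled peptide transporter, was at 0.0771, 0.234 and 0.324 CPM at P5 and 204, 299.6, 404, 211 and 312 CPM at P11 (log2 fold change 10.35 ± 0.30, adjusted p = 1.09e-17). For all 3 genes each P11 library lay far above every P5 library. The amino acid transporter Slc6a14 went from 0.0337 ± 0.0476 to 40.6 ± 13.4 CPM, the annexin Anxa8 from 0.342 ± 0.271 to 74.5 ± 22.9 CPM, and the pancreatic protease gene Ctrc from 0 to 0.0579 CPM per library at P5 to 23.1 to 29.8 CPM at P11. Fam25a (8.64), Nccrp1 (7.81), Rptn (7.49), Krt6b (8.98) and Krt76 (8.67) were also among the 12 largest rises, and the last 3 are known from stratified epithelium. The size of some of these rises depended on single libraries. Without P11 Het 2 the values were 4.03 for Rptn and 7.22 for Krt76. Leaving out 1 P5 library raised them, to 11.02 for Slc6a14 without P5 Het 3, 9.51 for Fam25a without P5 Het 4, 8.91 for Nccrp1 without P5 Het 1 and 10.55 for Krt76 without P5 Het 5.

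Genes with the smallest p-values among those that rose were Akr1c18, Slc15a1, Emb, Plbd1, Ggt1, Rras2, Mmp13 and Cartpt. Plbd1, a phospholipase-like lysosomal protein, was at 8.71, 10.6 and 10.9 CPM at P5 and 116, 111, 112, 116 and 112 CPM at P11 (log2 fold change 3.49 ± 0.09, adjusted p = 3.43e-19). Mmp13, collagenase 3, was at 36.7, 43.4 and 51.4 CPM at P5 and 716, 726, 637, 837 and 598 CPM at P11 (log2 fold change 4.00 ± 0.12, adjusted p = 2.94e-17). Emb, a membrane glycoprotein that accompanies monocarboxylate transporters, rose from 2.74 ± 0.31 to 44.3 ± 3.26 CPM, the glutathione-cleaving enzyme Ggt1 from 4.83 ± 0.825 to 101 ± 15.8 CPM and Cartpt, a neuropeptide precursor, from 8.24 ± 1.19 to 189 ± 18.8 CPM. All 8 were chosen among genes whose groups did not overlap.

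The largest falls included Otof, which encodes the calcium sensor otoferlin of hair-cell synapses, at 132, 146 and 162 CPM at P5 and 0.232, 8.84, 0.697, 0.426 and 0.139 CPM at P11 (log2 fold change -6.11 ± 0.61, adjusted p = 1.2e-08). P11 Het 2 was the highest P11 library, and without it the log2 fold change was -8.60. Papln, a matrix protein of the papilin family, was at 947, 1186 and 1259.5 CPM at P5 and 36.2, 65.5, 24.9, 6.96 and 8.25 CPM at P11 (log2 fold change -5.34 ± 0.44, adjusted p = 4.24e-10). As for Enam, its P11 libraries of prefix 2 were the lowest. Galnt12, a glycosyltransferase that starts mucin-type chains, fell from 157 ± 15.8 to 8.18 ± 5.71 CPM, the sulfotransferase Chst1 from 224 ± 11.2 to 14.5 ± 11.8 CPM, the alpha-catenin Ctnna2 from 401 ± 35.1 to 26.1 ± 24.6 CPM and the tubulin-glutamylating enzyme Ttll11 from 30.2 ± 4.82 to 1.35 ± 1.37 CPM. Gpha2 (-3.98), Capn8 (-3.65) and Aifm3 (-3.62) completed the 12 with Amelx, Enam and Wnt3a. Without P11 Het 2 the falls were also larger for Ctnna2 (-4.71), Ttll11 (-5.35) and Gpha2 (-4.72). Falls with the smallest p-values were smaller in size: Mtmr10 by 1.70, Gdpd5 by 2.16, Tesc by 3.38, the kinase Sgk3 by 1.83, the semaphorin receptor Plxna4 by 2.96, Tent5a by 2.33 and Elmo1 by 1.44.

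Markers of other cell types changed between the ages, and in whole molars more cells of a type and more RNA per cell cannot be told apart. Osteoclast markers rose in 11 of 14 cases and none fell (78.6%, median 2.33). Acp5, the tartrate-resistant phosphatase, was at 5.15, 8.81 and 13.9 CPM at P5 and 94.7, 74.5, 61.1, 101 and 68.4 CPM at P11 (log2 fold change 3.16 ± 0.21, adjusted p = 8.81e-12). Ctsk, the collagen-degrading cathepsin, was at 17.9, 26.1 and 33.2 CPM at P5 and 147, 135, 116, 155 and 116 CPM at P11 (log2 fold change 2.35 ± 0.14, adjusted p = 1.38e-12). All 11 had groups that did not overlap, as did 6466 of the 10291 genes called. Clcn7, Ostm1 and Tnfrsf11a were not called (0.05, 0.15 and 0.30). Mmp9 is on this list and was also counted among the secretory enamel genes. Bone markers rose in 8 of 15 cases and fell in 2 (53.3% and 13.3%), and most of them are also on the dentin list. Myeloid markers did not move as a group, with 3 of 20 higher, 4 lower and 13 not called. Both shares were below those of all genes (24.4% and 23.4%). The summed level of the list had a median of 229 CPM at P5 and 225 CPM at P11. Cd163 and Mrc1, known from resident macrophages, were among the 4 that fell, by 1.82 and 0.73. The common leukocyte gene Ptprc was not called (0.17). Lymphocyte markers rose in 7 of 11 cases and fell in 2 (63.6% and 18.2%), with no group mean above 15.9 CPM. With P11 libraries of prefix 2 only, 2 rose and none fell.

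Vessel and nerve markers rose more often than they fell. Among 22 endothelial and mural genes 14 rose and 3 fell (63.6% and 13.6%, median 0.39). Those that rose included Flt1 by 1.10 and the pericyte gene Rgs5 from 5026 ± 571 to 10321 ± 1637 CPM. Of 17 nerve and Schwann cell markers 11 rose and 4 fell (64.7% and 23.5%, median 1.16). The myelin genes Mbp and Mag rose by 1.96 and 1.85 and the myelinating factor Egr2 by 2.48. Ngfr, high in immature Schwann cells, was among the 4 that fell, by 1.57. Erythroid markers rose in 11 of 13 cases (84.6%), with Hbb-bs from 42.5 ± 4.84 to 145 ± 41 CPM. The alpha-globin genes Hba-a1 and Hba-a2 are near-identical copies between which reads cannot be assigned with certainty. Cartilage (2 of 11 higher, 2 lower), adipocyte (4 of 7 higher) and salivary markers (1 of 3 higher, 2 lower) rested on few genes.

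Muscle and oral mucosa markers differed between libraries of the same age. The summed level of 15 tested oral keratinocyte markers was 47.4 to 66.2 CPM at P5 and 299, 1343, 365, 390.3 and 559 CPM in P11 replicates 1 to 5. All 15 rose, with a median of 4.96, but for 9 the ranges overlapped, and without P11 Het 2 the count was 8 and the median 2.63. Without that library and the other 4 that stood out for muscle or mucosa markers, 12 passed the filter, 11 rose and the median was 5.24. With the P11 libraries of prefix 2 only, 20 passed the filter and 7 rose. Krt4, a keratin of the oral lining, was at 0, 0.0815 and 9.53 CPM at P5 and 6.37, 271, 17.2, 1.4 and 2.83 CPM at P11 (log2 fold change 5.20 ± 1.57, adjusted p = 0.00848), and without P11 Het 2 it was not called (2.09, adjusted p = 0.232), while without P5 Het 4 its value was 9.55. The summed level of 15 muscle markers was 21.9, 25.3, 21.5, 23.5, 87.7 and 18.4 CPM in P5 replicates 1 to 6 and 24.4, 152, 44.2, 35.3 and 39.4 CPM in P11 replicates 1 to 5. Of these 6 rose (median 1.23), and 4 rose and 1 fell without P11 Het 2, where the median was 0.22. Without all 5 such libraries 9 rose and the median was 1.51. Without the libraries in which either set was raised, which among the Het libraries are P5 Het 4, P5 Het 5 and P11 Het 2, the secretory enamel list had 4 that rose and 13 that fell, the hedgehog list 3 and 10, the cell cycle list 30 and 1 and the osteoclast list 11 and 0.

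**Figure D4:**
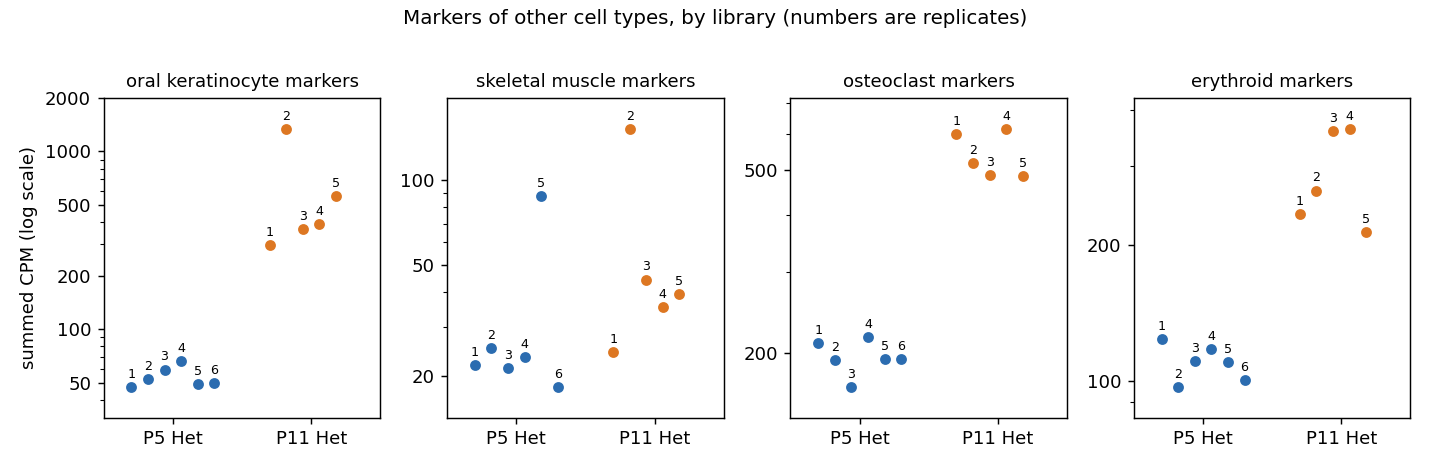
Summed CPM of oral keratinocyte, skeletal muscle, osteoclast and erythroid markers in each Het library, on a log axis, 1 point per library with P5 in blue and P11 in orange and the replicate number beside each point. P11 Het 2 is highest for keratinocyte and muscle markers (1343 and 152.4 CPM), and P5 Het 5 is the highest P5 library for muscle (87.7 CPM).

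The age change in Het molars was then set against that in WT molars, with the difference itself tested. The age comparisons share no library, and prefix 5 occurs at P5 in Het libraries only. Of the 10291 genes called in Het, 8150 were called in the same direction in WT (79.2% of the Het calls and 76.7% of the WT calls, of which there were 10633, or 49.4% of genes), and 6 in the opposite direction. A further 2135 were called in Het and not in WT, and the difference between genotypes was called for none of these. Over all genes the difference was called for 3 (0.0139%), all with the higher age change in Het and none with the lower. An unadjusted p under 0.05 was found for 2213 of the 21510 genes, where a share of about 0.05 is reached by chance. Genes not called are not thereby shown to change alike in both genotypes. DESeq2 on the same counts called 38 higher and 14 lower. Leaving out 1 library gave 5 higher and 2 lower without P5 Het 1, 7 and 0 without P11 Het 4, 8 and 1 without P11 Het 5 and 6 and 0 without P5 WT 4.

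All 3 genes fell in both genotypes and fell less in Het. A smaller fall can reflect a lower P5 level or a higher P11 level, and WT levels are given for Steap1 only. Steap1, of the metalloreductase family (chr5:5736317-5749326), was at 20.4, 23.8 and 27.4 CPM at P5 and 10.3, 8.16, 8.63, 6.48 and 5.38 CPM at P11 in Het molars (log2 fold change -1.60 ± 0.12, adjusted p = 1.3e-10). In WT it went from 58.4 ± 4.56 to 6.08 ± 0.613 CPM, so Het lay below WT at P5 and the genotypes were close at P11. The age changes of Steap1 differed by 1.66 on the log2 scale (adjusted p = 2.07e-05). F13a1, coagulation factor XIII subunit A (chr13:36867178-37050244), was at 99.9, 108 and 119 CPM at P5 and 42.7, 43.8, 48.9, 56.2 and 47.1 CPM at P11 in Het molars, and the age changes differed by 0.78 (adjusted p = 0.00223). Cldn20, a claudin gene (chr17:3532554-3533213), was at 21.1, 24.3 and 25.3 CPM at P5 and 9.48, 14.4, 13.2, 6.96 and 13.9 CPM at P11 in Het molars, and the age changes differed by 1.44 (adjusted p = 0.0151). For Cldn20 that adjusted p was 0.0512 without P11 WT 4 and 0.535 when the 5 libraries that stood out for muscle or mucosa markers were left out, P5 Het 4, P5 Het 5, P11 Het 2, P11 WT 4 and P11 WT 5. With P5 libraries of prefix 3 only, all 3 differences kept their sign and none was called (adjusted p = 0.173, 0.34 and 0.848 for Steap1, F13a1 and Cldn20).

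These enamel genes changed in the same direction in both genotypes. Enam changed by -4.22 in Het and -7.11 in WT, with a difference of 2.90 (adjusted p = 0.369, and 0.0233 with DESeq2). Its P11 levels depended on the prefix in both genotypes. In WT replicates 1 to 5, of which 1 to 3 again have prefix 1, it was at 356, 200.3, 388, 33.6 and 39.7 CPM, so within each prefix every Het library lay above every WT library. With P11 libraries of 1 prefix and all P5 libraries kept, the difference in age change was called. It was 2.96 with P11 libraries of prefix 1 only (adjusted p = 4.94e-07). With those of prefix 2 only, which are 2 in each genotype, it was 1.60 (adjusted p = 0.00266). The P5 libraries in these fits were not matched for prefix. Amelx changed by -3.92 and -4.98, a difference of 1.06 (adjusted p = 0.47), which was 1.18 with prefix 1 only (adjusted p = 0.00882) and 0.42 with prefix 2 only (adjusted p = 0.711). For Odam the values were 5.92 and 5.28 (adjusted p = 0.423) and for Klk4 5.67 and 4.95 (adjusted p = 0.354). Over the 21 secretory genes the median difference was 0.16 and the smallest adjusted p was 0.246. Tgfbr2 changed by -0.82 in Het and -0.68 in WT (adjusted p of the difference = 0.655). Csn3 changed by 0.03 in Het and -3.83 in WT, and the difference missed the threshold (adjusted p = 0.0823, and 0.00156 with DESeq2). It was called without any 1 of P5 Het 1, P5 Het 3, P11 Het 4 and P11 Het 5 (adjusted p from 0.0249 to 0.0353) and with P11 libraries of prefix 1 only (adjusted p = 0.0261). With P11 libraries of prefix 1 only, 19 genes had the higher age change in Het and 3 the lower, and with those of prefix 2 only 13 and 103.

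**Figure D5:**
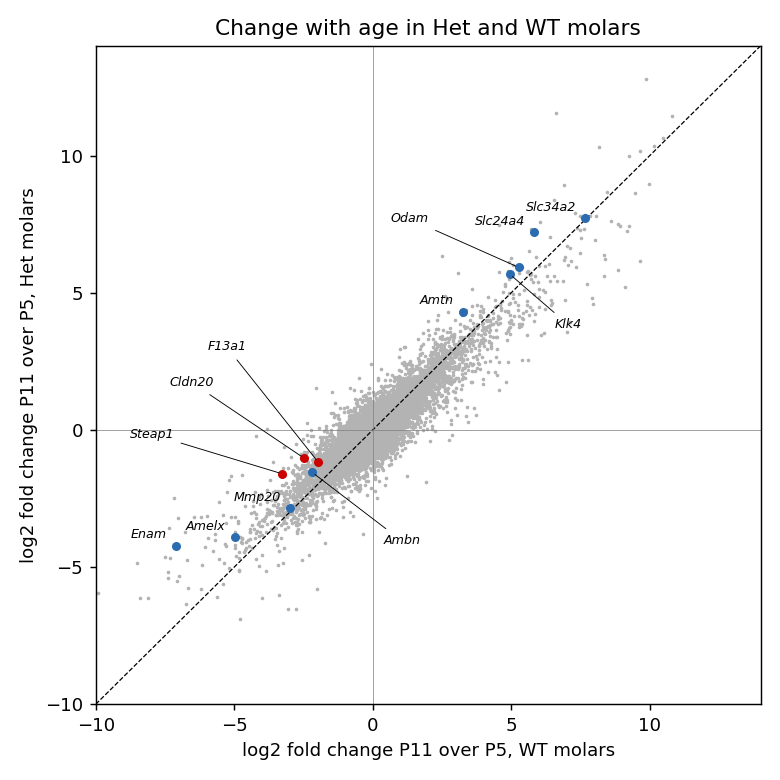
Log2 fold change P11 over P5 in WT molars (horizontal axis) against Het molars (vertical axis), 1 grey point per gene of the 21510 tested, with the diagonal of equal change. Red points are Steap1, F13a1 and Cldn20, the genes whose age change differed between genotypes, and blue points are enamel genes named in the text.

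Some abundant genes varied more between libraries of 1 age than between the ages. Arglu1, which encodes a splicing regulator, was at 343, 1135 and 1547 CPM at P5 and 783, 239, 327, 919 and 1243 CPM at P11 (log2 fold change -0.60 ± 0.41, adjusted p = 0.233), with P5 Het 1 and P11 Het 2 and 3 low. Col1a1 was low in the same 3 libraries. Ube2h, a ubiquitin-conjugating enzyme, was at 201, 258 and 664 CPM at P5 and 193, 561, 715, 285 and 447 CPM at P11 (log2 fold change 0.23 ± 0.40, adjusted p = 0.672), with P5 Het 1 and 2 and P11 Het 2 and 3 high. Ece1, the endothelin-converting enzyme, was high in the same 4 libraries relative to others of their age and yet rose, at 207, 272 and 596 CPM at P5 and 1707, 4603, 6790.1, 2212 and 3700.0 CPM at P11 (log2 fold change 3.44 ± 0.36, adjusted p = 2.22e-08). Mbnl1 ranged from 195 to 1193 CPM at P5, where P5 Het 3 was alone above 300 CPM, and Alkbh5, Klhl42, Spcs3 and Ric1 likewise spread within an age and were not called. These genes were the most variable on the log2 scale among those above 50 CPM, and what sets the shared order of libraries was not tested.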

How the data were processed

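RNA was sequenced from whole first mandibular molars, with unstranded paired reads of 100 bases per the labels' protocols. Reads were aligned with STAR 2.7.3a to GRCm38, and DESeq2, edgeR and limma are also named, per the submitters' processing notes. For the read counter and annotation the sources used here give no name. The deposited table of raw counts per gene was analysed, and the authors' deposited TMM-normalised signal table was read for gene symbols only. Of 55439 features, 18 that name no gene were left out, which took 0.000109% to 0.000457% of counts per library. Without strand, reads from overlapping antisense genes cannot be told apart.

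Counts from all 22 libraries entered 1 model with the 4 age and genotype groups (18 residual degrees of freedom) in edgeR 4.0.16 under R 4.3.3, with TMM factors, a filter by group size (filterByExpr, minimum count 10, minimum total 15) and a two-sided quasi-likelihood test. The filter left 21510 genes, of which 21483 matched the GENCODE annotation of GRCm38 used for coordinates and lengths. The SE of a log2 fold change was derived from its F statistic. Samples were grouped by genotype and age in their labels. Replicates differed by more than sampling noise (chi-square per degree of freedom of at least 6.94), so none was merged as a repeat of the same library. The check cannot tell whether libraries came from the same animal. The script was tested on simulated data. Same-numbered P5 and P11 Het libraries did not deviate together (correlations from -0.096 to -0.013), so numbers were not taken as pairs.

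Genes were named by rule: Tgfbr2; the 12 largest and the 8 smallest-p changes in each direction with at least 10 CPM and groups that do not overlap; members of the gene lists; genes called for the difference between genotypes; and the 8 most variable genes of each age with at least 50 CPM. The members and lists were chosen with earlier results of these data known, and Csn3 and the promoter search after the values were seen. Alternatives were other scalings and filters, DESeq2 1.42.0, limma-voom (limma 3.58.1), glmTreat, the Het libraries alone, subsets by prefix, a replicate block, left-out libraries and, chosen after seeing the data, sex as a covariate.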

Additional observations from a re-analysis of the deposited data

Results flagged for a closer look

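A library that stood apart from the rest of its group was found in 10 of 160 groups of values examined, and chance alone gives about 1 in 20. For oral keratinocyte markers the summed level in P11 Het 2 was 1343 CPM, above the other 4 P11 libraries. The keratin gene Krt4 was highest in the same library at P11 (271 CPM) and in P5 Het 4 at P5 (9.53 CPM), each far from the other libraries of that age. Skeletal muscle markers summed to 152 CPM in P11 Het 2 and 87.7 CPM in P5 Het 5, again the only raised library of each group. Otof, which fell, was still at 8.84 CPM in P11 Het 2 and below 1 CPM in the other P11 libraries.

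P5 Het 3 was the lowest P5 Het library for the summed secretory enamel list (130705 CPM) and for iron genes (1037 CPM). Aspn reached 25.5 CPM in P5 Het 1, above the 14.5 to 16.8 CPM of the others. Top2a was lowest in P5 Het 6 (35.3 CPM), the library whose labels disagree on age, and lay there farther from the P11 level than in the other P5 libraries.

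The change with age differed between genotypes by test for 3 genes. It was less negative in Het than in WT by 1.66 on the log2 scale for Steap1, by 1.44 for Cldn20 and by 0.78 for F13a1.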

How the results depend on the processing

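The counts of genes called with age in Het molars (5250 higher, 5041 lower) stayed within 1.5 times under every alternative run, and leaving out single libraries of either genotype gave 4893 to 5419 and 4643 to 5055. Tests against a 2-fold change by glmTreat gave 1024 higher and 740 lower in place of 1882 and 1687, and a filter at 1 CPM in 5 libraries gave 1113 lower, both stricter by construction. The difference between genotypes (3 higher, 0 lower) moved more. It gave 38 and 14 with DESeq2, 6 and 2 with the prefix as a random block, 19 and 3 with P11 libraries of prefix 1 only, 13 and 103 with those of prefix 2 only, 1 higher with P5 libraries of prefix 4 only, 2 lower without scaling and 1 lower without a filter. Leaving out single libraries gave 2 to 8 higher and 0 to 2 lower. The cause was not tested. The replicate block gave 5144 and 4885 for age and 4 and 0 for the difference, and added calls for Mepe (2.77) and Smad7 (-0.52). The direction of the Slc40a1 change reversed to -0.31 with P11 libraries of prefix 1 only. Of 280 results for single genes, 241 kept their call in every alternative run, no called gene changed sign, and 27 of 48 uncalled ones did. Sex as a covariate, chosen after seeing the data, gave 5160 and 4947. Single genes at under 1 CPM at P5 have large fold changes set by few counts.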
